A study of Mus musculus with 4 samples.

Results

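The genes described here are 10 components of the machinery by which a cell recognises DNA or RNA in its cytosol. They were taken as every non-control probe whose gene name on the array was Mb21d1, Tmem173, Zbp1, Trex1, Ddx58, Ifih1, Dhx58, Mavs, Tbk1 or Irf3. The rule found all 10 genes, with 18 probes, among 20619 genes with a probe well above background on at least 1 array. The DNA arm holds 4 of them, the RNA arm 4, and 2 act below both arms.

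The arrays measured RNA of cultured primary mouse hepatocytes of strain C57BL/6, harvested 24 h after seeding. There were 4 groups with 1 array each: control and Drp1LiKO cells, each either untreated or exposed to 200 μM of the saturated fatty acid palmitate. Drp1LiKO mice lack dynamin-related protein 1 (Drp1, encoded by Dnm1l), which divides mitochondria, in the liver, through floxed alleles and a Cre driven by the albumin promoter, which is active in hepatocytes. According to the study's methods the controls are floxed littermates and all animals are male; the labels call the controls wild-type. The age of the mice and the duration of palmitate exposure of the array cultures are not given in the sources used here; other experiments of the study exposed hepatocytes for 24 h. The hepatocytes were pelleted at low speed from digested liver and were not sorted, so a culture can hold other liver cells. Its label says that the untreated control array shares raw data with a sample deposited elsewhere.

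Every level is a normalized log2 intensity with 0 at the 75th percentile of its array, and levels of different probes are not comparable. With 1 array per group, the spread between animals or cultures is unknown and no difference between 2 arrays was tested. The error printed with a difference is that of the scanner software's error model for both spots, in log2 units. It covers the measurement of a spot only. A difference is called past the fold threshold when it is at least 1 log2 unit (2-fold) and the probe lies well above background on either of the arrays compared. All 10 genes had a probe well above background on all 4 arrays. Between 44.7% and 51.1% of all probes were well above background on an array. Dnm1l, the targeted gene, was lower in Drp1LiKO, with a difference of −1.35 untreated and −1.42 with palmitate.

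Foreign or misplaced nucleic acid in the cytosol triggers type I interferon through a pair of parallel routes. Double-stranded DNA, including mitochondrial DNA that leaks from damaged organelles, binds cGAS, which makes the messenger cGAMP; cGAMP activates STING on the endoplasmic reticulum. Double-stranded or uncapped RNA binds RIG-I or MDA5, which signal through MAVS on the mitochondrial outer membrane. Both routes reach the kinase TBK1 and the transcription factor IRF3. Hepatocytes are known for a weak DNA arm, with little STING, while the macrophages of the liver carry more of it. Several of these genes are themselves induced by interferon.

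The DNA arm was split at its first step. Mb21d1, which encodes the sensor cGAS, was lower in Drp1LiKO in both conditions, whereas Tmem173, which encodes STING, and Zbp1 were higher in both. Of the 10 genes, Mb21d1 alone was past 2-fold in the lower direction, where 5.6% of all measured genes lay untreated and 4.27% with palmitate. Macrophage markers were also higher in Drp1LiKO, with a summed level of 20.4 in control and 50.4 in Drp1LiKO untreated, and 26.2 and 47.4 with palmitate. Cd68 and Itgam together held between 56.2% and 66.0% of each sum. Between genotypes Cd68 differed by 2.01 untreated and 1.69 with palmitate, and Itgam by 0.02 and −0.36. STING and Zbp1 are expressed in macrophages as well as in endothelial cells, and the part of these cells in the values was not tested. In RNA of a whole culture, more cells of a type and more RNA per cell cannot be told apart.

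The main Mb21d1 probe lies on chromosome 9 at 78278381 to 78278440 (mm9, minus strand). It read −0.83 in untreated control, −2.46 in untreated Drp1LiKO, −0.70 in palmitate-treated control and −2.18 in palmitate-treated Drp1LiKO. Both Drp1LiKO arrays lay below both control arrays. The genotype difference was −1.64 ± 0.21 untreated, 3.11-fold lower, and −1.49 ± 0.21 with palmitate, 2.80-fold lower. Among all measured genes, the untreated difference ranked 580 from the lowest of 19878, and the palmitate difference 485 of 18892. The palmitate difference within a genotype stayed small, at 0.13 in control and 0.28 in Drp1LiKO.

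A second Mb21d1 probe, at 78283309 to 78283368 on the same chromosome, was dim. It read −4.20, −6.14, −4.33 and −4.74 in the same order, and the first of these alone was well above background. The untreated genotype difference of this probe was −1.95 ± 0.76. The untreated control reading was 2.07-fold above the lowest level called well above background on the untreated Drp1LiKO array. Spots not called can lie above that level, so this ratio is not a lower bound. With palmitate neither array carried a level well above background on this probe, so the lower Mb21d1 signal with palmitate rests on the main probe. With both probes averaged, the palmitate difference between genotypes was −0.95 and just short of the threshold.

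Tmem173 on chromosome 18 (probe at 35893692 to 35893751, mm9) read −2.37 in untreated control, −1.25 in untreated Drp1LiKO, −2.49 in palmitate-treated control and −1.46 in palmitate-treated Drp1LiKO. Both Drp1LiKO arrays lay above both control arrays. Between genotypes it differed by 1.12 ± 0.22 untreated and 1.03 ± 0.23 with palmitate, so both lay within their error of the threshold. The untreated value was 0.94 after scaling to each array's median. It was 0.72 after another background correction (normexp with an offset of 50 added to the intensity, followed by quantile normalization). The palmitate value was 0.97 after quantile normalization, 0.88 after median scaling and 0.64 after normexp. Tmem173 has 1 probe on the array, and no second reading was possible.

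Zbp1 encodes a sensor of Z-form nucleic acid that was first described as a DNA sensor and that can start necroptosis through RIPK3. Its main probe, on chromosome 2 at 173039307 to 173039366 (mm9), read −0.89 in untreated control, 1.45 in untreated Drp1LiKO, 0.29 in palmitate-treated control and 2.49 in palmitate-treated Drp1LiKO. The genotype difference was the largest of the 10 genes, at 2.34 ± 0.21 (5.06-fold higher) untreated and 2.20 ± 0.20 (4.61-fold) with palmitate. The palmitate arrays were also above the untreated arrays, by 1.17 in control and 1.04 in Drp1LiKO.

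The second Zbp1 probe, at 173032258 to 173032317, gave another picture. It read −4.96, −5.92, −4.38 and −1.28 in the same order and was well above background only on the Drp1LiKO palmitate array. There it read 8.62-fold above its reading on the control palmitate array. It lay 15.7-fold above the lowest level called well above background on the untreated Drp1LiKO array. Neither ratio is a lower bound, since the readings compared with are not well above background. On the untreated arrays it was not well above background in either genotype. When both probes were averaged, the untreated genotype difference of Zbp1 was 0.69 and no longer past the threshold. The deposited annotation assigns the probes to different transcripts of the gene.

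The starts of these 4 probes are printed because the paired probes of Mb21d1 and of Zbp1 read differently. Each line gives the first 30 of 60 bases, 5′ to 3′, from the deposited files.
Mb21d1, main probe: agccttttccagtggtctgtagctgttccc
Mb21d1, second probe: attagtaccaaagaaggactacctattcaa
Zbp1, main probe: caagctggtcttgaacccacagagatcttc
Zbp1, second probe: acagatgtgacatgaaagtacatgtaacac
Each of the 18 probes was laid without gaps against 32851 RefSeq promoter windows of GRCm38.p6. The main Zbp1 probe matched 4 windows of other genes in at least 45 of 60 bases, with a best match of 51 bases, and the other 17 probes matched 0. Promoter windows are a small part of the genome and are mostly not transcribed, and whether RNA of other loci adds to the main Zbp1 signal was not tested.

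Trex1 encodes the exonuclease that clears cytosolic DNA before cGAS can bind it. Its probe on chromosome 9 (108960454 to 108960513, mm9) read 2.08 in untreated control, 2.70 in untreated Drp1LiKO, 2.46 in palmitate-treated control and 3.02 in palmitate-treated Drp1LiKO. Its genotype difference was 0.62 ± 0.20 untreated and 0.56 ± 0.20 with palmitate, both short of 2-fold. Trex1 was thus on the higher side in Drp1LiKO in both conditions, as were STING and Zbp1.

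**Figure D1:**
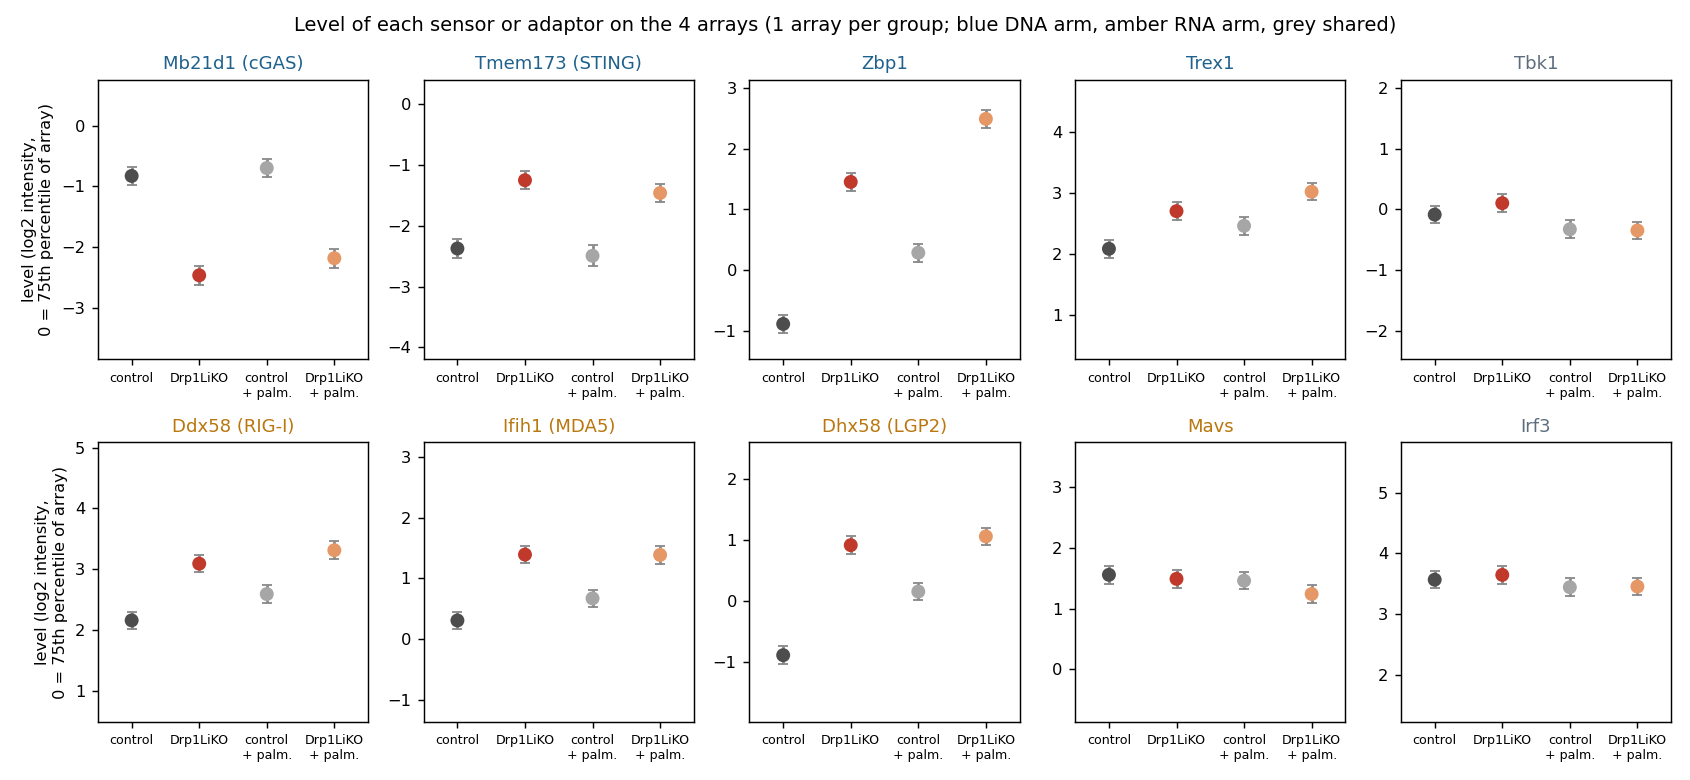
Normalized log2 intensity of the main probe of each gene on the 4 arrays, with 0 at the 75th percentile of each array; points are single arrays, bars the error of the scanner software's error model, and every panel spans the same range around its own mean. Mb21d1 is the panel in which both Drp1LiKO arrays sit low (−2.46 and −2.18 against −0.83 and −0.70).

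The 3 RNA helicases were all on the higher side in Drp1LiKO. Ddx58 encodes RIG-I, which binds short double-stranded RNA with a 5′ triphosphate. Its main probe, on chromosome 4 at 40151893 to 40151952 (mm9), read 2.16 in untreated control, 3.09 in untreated Drp1LiKO, 2.59 in palmitate-treated control and 3.31 in palmitate-treated Drp1LiKO. The genotype difference was 0.93 ± 0.20 untreated, just short of the threshold, and 0.72 ± 0.20 with palmitate, also short of it. The other 3 Ddx58 probes, each well above background on all 4 arrays, gave genotype differences of 1.22, 0.91 and 1.63 untreated and 0.65, 0.70 and 0.48 with palmitate. All 4 probes of the gene were higher in Drp1LiKO in both conditions, and 2 of them were past 2-fold without palmitate.

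Ifih1 encodes MDA5, which binds long double-stranded RNA. Its main probe on chromosome 2 (62435621 to 62435680, mm9) read 0.31 in untreated control, 1.39 in untreated Drp1LiKO, 0.67 in palmitate-treated control and 1.39 in palmitate-treated Drp1LiKO. Drp1LiKO minus control was 1.08 ± 0.20 untreated and 0.72 ± 0.20 with palmitate. The smaller second value goes with a higher control array, since both Drp1LiKO arrays read alike. The second Ifih1 probe was not well above background on any array. After median scaling the untreated difference was 0.90.

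Dhx58 encodes LGP2, a helicase without signalling domains that regulates RIG-I and MDA5. Its main probe on chromosome 11 (100556271 to 100556330, mm9) read −0.90 in untreated control, 0.92 in untreated Drp1LiKO, 0.15 in palmitate-treated control and 1.06 in palmitate-treated Drp1LiKO. Its genotype difference was 1.81 ± 0.21 (3.51-fold higher) untreated and 0.91 ± 0.20 with palmitate. The second minus the first is −0.90. Among 16613 genes on all 4 arrays, the middle part of this quantity from the 5th to the 95th percentile ran from −0.50 to 0.48. The untreated genotype difference and the palmitate difference in control share the untreated control array, the lowest of the 4 readings. The other Dhx58 probe was not well above background on any array, and averaging it in gave 0.74 untreated.

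Mavs encodes the adaptor through which RIG-I and MDA5 signal, and it showed no such pattern. Its probe on chromosome 2 (131073675 to 131073734, mm9) read 1.56 in untreated control, 1.49 in untreated Drp1LiKO, 1.46 in palmitate-treated control and 1.24 in palmitate-treated Drp1LiKO. The genotype difference was −0.07 ± 0.20 untreated and −0.22 ± 0.20 with palmitate, the first within the error of the spots. The RNA arm therefore divided into 3 helicases that read higher in Drp1LiKO and an adaptor that did not.

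The genes below both arms differed little. Tbk1 encodes the kinase that phosphorylates STING, MAVS and IRF3. Its probe on chromosome 10, whose ends lie at 120988364 and 120988587 (mm9), read −0.08 in untreated control, 0.10 in untreated Drp1LiKO, −0.33 in palmitate-treated control and −0.35 in palmitate-treated Drp1LiKO. Drp1LiKO minus control came to 0.19 ± 0.20 untreated and −0.02 ± 0.21 with palmitate, within the error of the spots in both. Irf3 encodes the transcription factor that TBK1 activates, and its main probe on chromosome 7 (52257700 to 52257759, mm9) read 3.56, 3.64, 3.44 and 3.45 in the same order. Its genotype differences were 0.08 ± 0.20 and 0.01 ± 0.20, and those of its second probe −0.04 and 0.08. RNA level says nothing of the phosphorylation by which both proteins act.

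**Figure D2:**
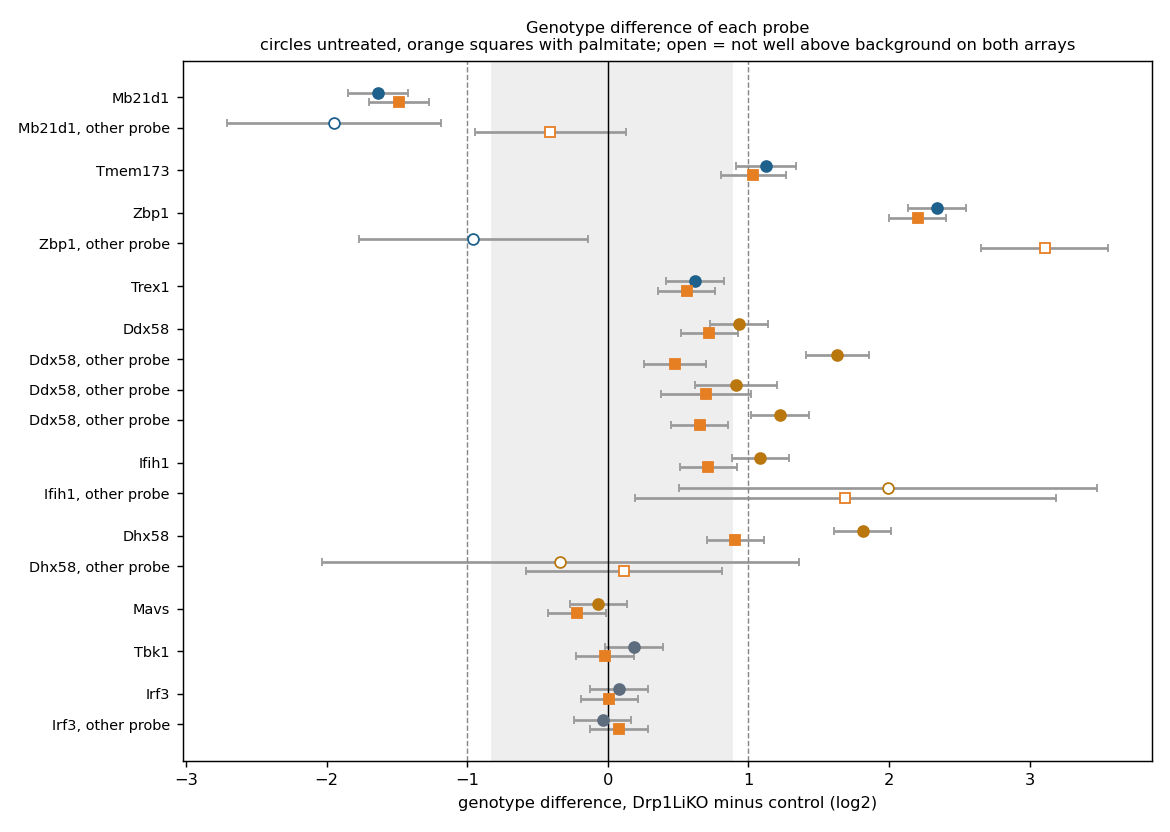
Drp1LiKO minus control (log2) for each of the 18 probes, untreated (circles) and with palmitate (orange squares), with the error of the scanner software's error model; open symbols are probes not well above background on both arrays, dashed lines mark 2-fold, and the grey band holds the 5th to 95th percentile of the untreated difference (−0.82 to 0.89) of 16613 genes on all 4 arrays. The main probe of Mb21d1 lies left of the band (−1.64 and −1.49), and that of Zbp1 (2.34 and 2.20) right of it.

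Counted over the 10 genes, 4 were past 2-fold higher (Zbp1, Dhx58, Tmem173 and Ifih1) and 1 lower (Mb21d1) in Drp1LiKO without palmitate. The share of all 19878 measured genes past 2-fold was 14.4%, with 8.84% higher and 5.6% lower; among genes well above background on both arrays, as these 10 are, it was 7.82%. With palmitate 2 genes were past 2-fold higher (Zbp1 and Tmem173) and 1 lower (Mb21d1), against 11.5% of 18892 genes in either direction, 7.24% higher and 4.27% lower, or 5.55% of genes well above background on both arrays. Genes on all 4 arrays that passed 2-fold the same way with and without palmitate made up 2.34% (higher) and 1.73% (lower) of 16613 genes, and of the 10 genes Zbp1 and Tmem173 were among the first and Mb21d1 among the second.

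The arms did not separate as wholes. The median genotype difference was 0.87 over the DNA arm and 1.01 over the RNA arm without palmitate, and 0.80 and 0.72 with it. The DNA arm minus the RNA arm was thus −0.14 and 0.08, and the second value was −0.12 with normexp. The 2 shared genes had medians of 0.13 and −0.004, and all measured genes −0.02 and −0.03. The DNA arm was the wider of the arms: its lowest and highest untreated differences were −1.64 and 2.34, against −0.07 and 1.81 in the RNA arm.

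**Figure D3:**
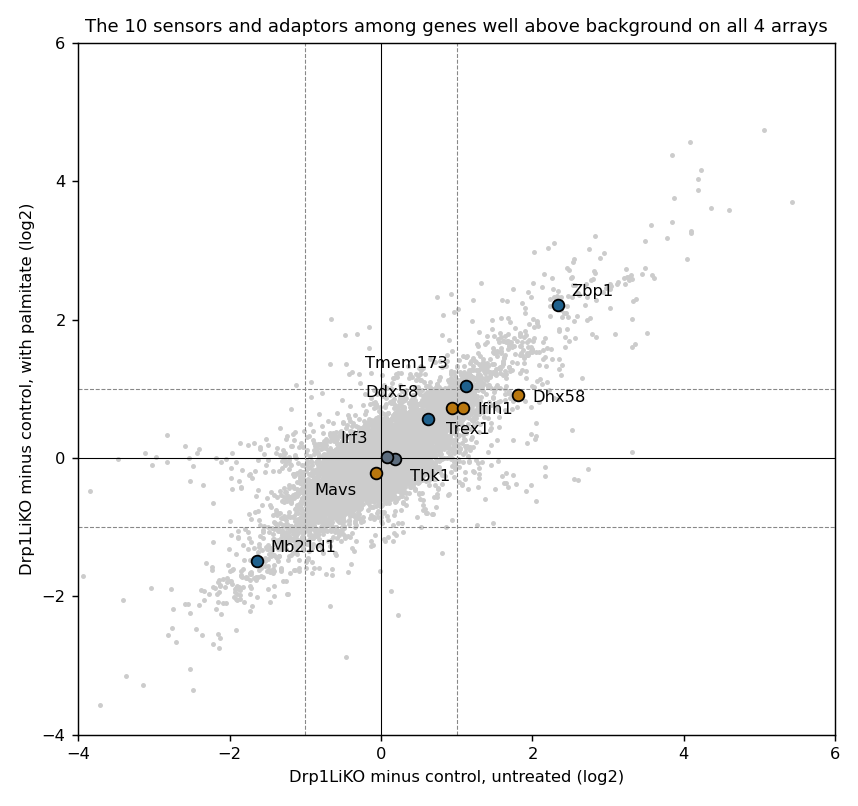
Drp1LiKO minus control (log2) untreated on the horizontal axis and with palmitate on the vertical axis for 16613 genes well above background on all 4 arrays (grey), with the 10 genes in colour (blue DNA arm, amber RNA arm, grey-blue shared) and dashed lines at 2-fold. Mb21d1 lies past 2-fold lower on both axes and Zbp1 past 2-fold higher on both. Dhx58 lies below the line of equal differences (1.81 untreated, 0.91 with palmitate).

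The additive model over all 4 arrays (limma, genotype and palmitate as terms, 1 residual degree of freedom) gave Mb21d1 a genotype effect of −1.56 (SE 0.086), Zbp1 2.27 (SE 0.083), Tmem173 1.08 (SE 0.076) and Dhx58 1.36 (SE 0.32). It takes the untreated and the palmitate array of a genotype as readings of that genotype. The labels do not say whether these come from different mice or preparations, so the SE need not hold the spread between animals. None of the 10 genes passed an adjusted p under 0.05, and neither did any of the 20619 genes (0%), the smallest adjusted p being 0.1202. Without adjustment, 7 of the 10 genes had a genotype p under 0.05, against 26% of all genes. When the spread was allowed to follow the signal intensity (limma's trend option), 7 of the 10 genes and 5275 of all genes (25.6%) passed; with normexp it was 5 of 10 and 6.97% of all genes, and among genes well above background on all 4 arrays 6 of 10 and 15.2%. Mavs, Tbk1 and Irf3 did not pass in any of them. For palmitate the model called 0 of the 10 genes and 0% of all genes, with 2 of 10 under an unadjusted p of 0.05 against 9.66% of all genes; with the trend option Zbp1 passed (limma adjusted p 0.01976), as did 0.461% of all genes.

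Palmitate is read with a limit, since both untreated arrays lie on 1 slide and both palmitate arrays on another, so that palmitate and slide cannot be told apart. Relative to the 75th percentile, the 7 spike-in control probes themselves differed, with medians of 0.22 (control) and 0.23 (Drp1LiKO). In control hepatocytes 2 of the 10 genes were past 2-fold higher with palmitate, Zbp1 (1.17 ± 0.21) and Dhx58 (1.05 ± 0.21), against 5.71% of 18773 genes in either direction and 2.83% higher, or 1.11% in either direction of genes well above background on both arrays. In Drp1LiKO hepatocytes it was Zbp1 alone (1.04 ± 0.20), against 7.02% of 19751 genes and 3.9% higher, or 2.4% of genes well above background on both arrays. Scaled to the spike-in probes, an alternative chosen after the data were seen, no gene of the 10 reached 2-fold: Zbp1 gave 0.96 and 0.82, and Dhx58 0.83 in control.

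The other genes gave palmitate differences between −0.24 (Tbk1) and 0.43 (Ddx58) in control, and between −0.45 (Tbk1) and 0.32 (Trex1) in Drp1LiKO. Both genes of the shared layer were on the lower side in each genotype. Dhx58 was higher with palmitate in control (1.05) but not beyond the error of the spots in Drp1LiKO (0.14), where it already stood at 0.92 without palmitate. The main Zbp1 probe differed by 1.17 in control and 1.04 in Drp1LiKO, whereas its second probe gave no value well above background for control. In Drp1LiKO with palmitate the second probe lay 15.7-fold above the lowest level called well above background on the untreated Drp1LiKO array. With both probes averaged, Zbp1 gave 0.88 in control and 2.84 in Drp1LiKO. The arm medians were 0.25 (DNA) and 0.40 (RNA) in control, and 0.30 and 0.07 in Drp1LiKO.

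**Figure D4:**
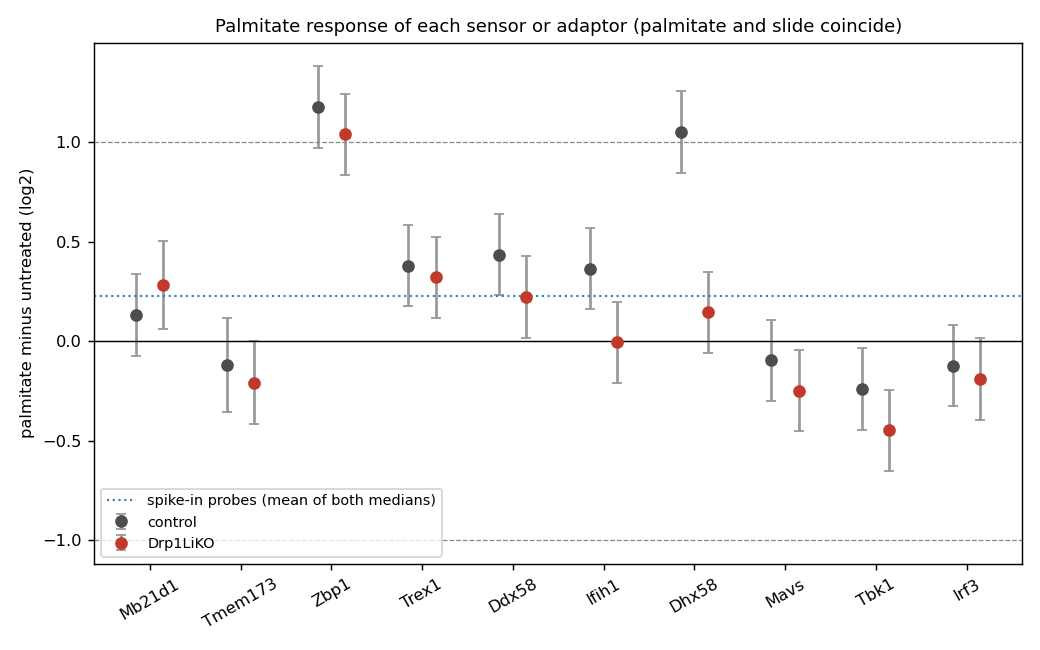
Palmitate minus untreated (log2) of each gene in control (black) and Drp1LiKO (red) hepatocytes, with the error of the scanner software's error model; dashed lines mark 2-fold and the dotted line the mean of both spike-in medians. Zbp1 is past 2-fold in both genotypes (1.17 and 1.04) and Dhx58 in control alone (1.05).

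Other genes of the pathway were taken as lists. Among 14 other DNA sensors, 12 were on the array. Of the 9 well above background on all 4 arrays, 2 were past 2-fold higher and 0 lower in each condition, where 3.97% and 2.94% of all genes on 4 arrays were higher. The 2 that met the naming rule were Ifi204 (1.79 untreated and 1.38 with palmitate) and Ifi205 (1.28 and 1.27), both of the interferon-inducible p200 family. The 5 listed subunits of RNA polymerase III, which turns AT-rich DNA into an RNA ligand of RIG-I, were not past 2-fold. The median of the 9 was −0.04 untreated and 0.05 with palmitate.

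Nucleases and other enzymes of nucleic acid turnover had 0 of 9 genes past 2-fold in each of the 4 comparisons, with medians of 0.07 and 0.01 for genotype. Of genes well above background on both arrays compared, as these 9 are, 7.82% untreated and 5.55% with palmitate were past 2-fold by genotype. By palmitate it was 1.11% in control and 2.4% in Drp1LiKO. Adar, which edits double-stranded RNA and limits MDA5, was at 0.74 untreated and 0.51 with palmitate. Of 14 further RNA sensors and cofactors, 1 was higher in each condition, against 8.84% and 7.24% of all measured genes. This was Ddx60, named after its values were seen, with a signal well above background on 2 arrays only. Trim25, a ubiquitin ligase of RIG-I, was among those not past the threshold.

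Regulators of STING included 1 gene past 2-fold lower in both conditions, Stim1 (−1.04 and −1.15), the calcium sensor of the endoplasmic reticulum that holds STING there. Of the 10 genes of this list, 1 was higher untreated and 0 with palmitate. The partners of ZBP1 in cell death had 0 of 5 past 2-fold, with Ripk3 at −0.78 and −0.70 and Mlkl at 0.71 and 0.55. The layer of kinases, TRAF proteins and interferon regulatory factors around TBK1 had 1 of 15 higher, Irf7 (1.83 and 1.48), which is itself an interferon target. All genes of the lists of this paragraph were well above background on all 4 arrays. Of all 16613 such genes, 660 (3.97%) were past 2-fold higher and 542 lower untreated. With palmitate 488 (2.94%) were higher and 399 lower.

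The interferon genes themselves were dim. Of 9 listed, 7 were on the array. By genotype, 0 of 4 measured were past 2-fold untreated, against 14.4% of all measured genes. With palmitate 1 of 4 was higher, against 7.24% of all measured genes, namely Ifnb1 (1.68), which was well above background on 1 array alone. By palmitate, 1 of 3 was higher in control, namely Ifnl3 (1.22), and 0 of 5 in Drp1LiKO, against 2.83% and 3.9% of all measured genes. Both genes are named after their values were seen. The targets of interferon were higher in Drp1LiKO, and 13 of the 15 listed were well above background on all 4 arrays. Of these 13, 12 were past 2-fold untreated (median 2.84) and 10 with palmitate (median 1.83), against 3.97% and 2.94% of all 16613 genes on 4 arrays. The largest among the 13, by the mean of both differences, were Rsad2 (5.43 and 3.70), Oasl2 (4.60 and 3.58), Ifit3 (4.35 and 3.61) and Oas1a (4.09 and 3.28). Between palmitate and untreated, 7 of the 13 were past 2-fold higher in control (median 1.098) and 1 in Drp1LiKO (median 0.33), against 0.764% and 1.42% of all genes on 4 arrays. The medians of this list followed the order seen for Dhx58, with the larger palmitate difference in control and the smaller genotype difference with palmitate; these comparisons share arrays.

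**Figure D5:**
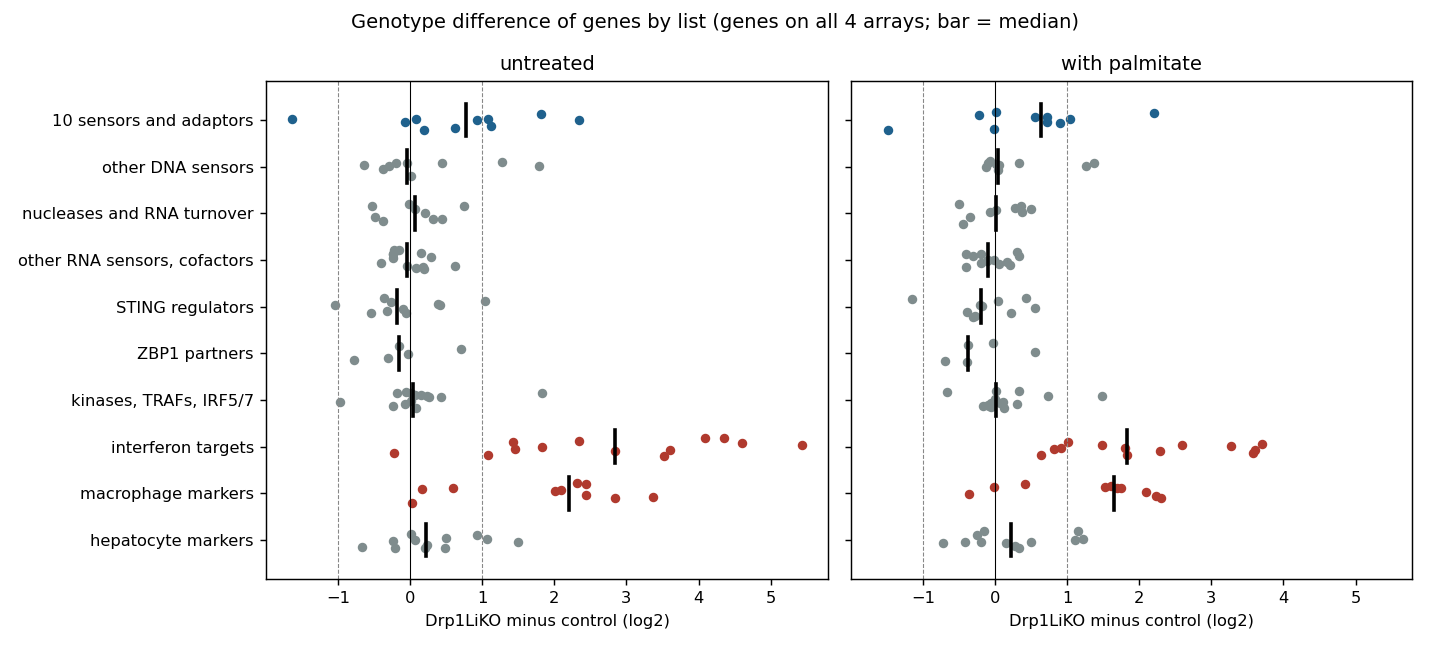
Drp1LiKO minus control (log2) for genes well above background on all 4 arrays, by list, untreated (left) and with palmitate (right); each point is a gene, the black bar the median and the dashed lines 2-fold. Interferon targets and macrophage markers (red) lie furthest right; the 10 sensors and adaptors have medians of 0.78 and 0.64, while the other pathway lists lie around 0.

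Markers of macrophages, endothelial cells and stellate cells were mostly higher in Drp1LiKO too. Cholangiocyte markers were not, with median genotype differences of −0.06 untreated and −0.40 with palmitate. Their summed level was 61.8 in control and 42.8 in Drp1LiKO untreated, and 58.3 and 44.5 with palmitate. Of 8 neutrophil, 11 lymphocyte and 8 dendritic markers, only 3, 5 and 3 were well above background on some array. The hepatocyte list was well above background on all 4 arrays for 12 of 12 genes, with a summed level between 1356 and 1380 times the 75th percentile, of which Serpina1a and Alb held between 83.6% and 85.4%. Of these 12, 2 were past 2-fold higher in Drp1LiKO untreated, Tat (1.499) and Tdo2 (1.07), and 3 with palmitate, Tat (1.22), Tdo2 (1.16) and Cps1 (1.11). Of all genes on 4 arrays, 3.97% untreated and 2.94% with palmitate were higher. Of 22 listed names of macrophage markers, 21 were on the array. Those well above background numbered 13 in untreated control, 19 in untreated Drp1LiKO, 10 in palmitate-treated control and 17 in palmitate-treated Drp1LiKO. Cd163 and Timd4 had no probe well above background.

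Of the macrophage markers, 10 were well above background on all 4 arrays, and 7 of these 10 were past 2-fold higher in each condition (medians 2.21 untreated and 1.65 with palmitate). The summed endothelial level was 2.13, 6.08, 2.05 and 4.34 in the same order of arrays. On all 4 arrays, 5 of 7 endothelial markers were past 2-fold higher in each condition (medians 1.63 and 1.49), as were 2 of 4 stellate markers (1.98 and 1.61). For these lists and the macrophage markers, the share of all genes on 4 arrays was 3.97% untreated and 2.94% with palmitate. The summed stellate level was 45.7, 63.3, 46.9 and 59.8. Acta2 alone held between 77.6% and 97.6% of it, and Acta2 with Dcn between 94.5% and 98.8%. Without Acta2 the sum was 1.09, 11.2, 1.24 and 13.4. Between genotypes Acta2 differed by 0.22 untreated and 0.02 with palmitate, and Dcn by 4.19 and 4.04. The part of these cells in the values of the interferon targets and of the 10 genes was not tested. Mb21d1 was lower on the arrays on which these markers were higher, and how its RNA divides among cell types was not tested.

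The genes whose 4-array profile lay nearest to each of the 10 were sought among 16613 genes, by Euclidean distance of centred log2 values. Nearest to Mb21d1 were Hist1h2ao (0.05), Aurka (0.07) and B4galt2 (0.07). Nearest to Zbp1 were Adgre1 (0.17), a macrophage surface marker gene, Fcer1g (0.21) and Gbp3 (0.24). Nearest to Dhx58 were 2310034O05Rik (0.15), Xaf1 (0.20) and Clec4n (0.26), and nearest to Ifih1 were AI413582 (0.09), AF000427 (0.10) and Il15 (0.10). With 4 arrays many genes share a profile by distance alone, and the distances are a description.

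RefSeq promoter windows (250 bases before to 50 after a start site, GRCm38.p6) were at hand for 7 of the 10 genes, in 8 windows. Tmem173, Zbp1 and Dhx58 are not among them. The core of an interferon-stimulated response element, read here as a pair of GAAA with any 2 bases between them, was searched on both strands and stood in 2 of 8 windows, those of Ifih1 and Ddx58, against 3.44% of 32851 windows. The motif TTCNNNGAA, the core of a gamma-activated site, stood in 0 of 8, against 8.3%. The matched stretches and the bases upstream of Mb21d1, the gene with the opposite difference, are printed with the motif or GAAA in capitals, 5′ to 3′ as the gene is transcribed.
Ifih1, chr2:62646206-62646235, minus strand: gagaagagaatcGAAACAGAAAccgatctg
Ddx58, chr4:40239804-40239833, minus strand: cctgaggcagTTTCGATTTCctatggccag
Mb21d1, chr9:78443238-78443337, minus strand: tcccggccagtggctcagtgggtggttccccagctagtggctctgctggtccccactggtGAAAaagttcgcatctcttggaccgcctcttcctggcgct
The first base of the match lies at position 33 from the Ifih1 start site and at position 3 from that of Ddx58, where the motif stands on the opposite strand. The 100 bases before the Mb21d1 start hold 1 GAAA, and the pair was not found in the whole Mb21d1 window. A match is a description of letters in this window and not a site of binding.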

How the data were processed

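RNA of 4 cultures was labelled with Cy3 and hybridised to 60-base oligonucleotide arrays. The authors deposited background-subtracted intensity values per spot, written by Feature Extraction 10.7.1.1 per the file headers (9.5.1.1 in the submitters' processing notes), and a table of processed intensity values that matched quantile normalization and was tried as an alternative. RNA extraction kits differ between the labels and the study's methods. Control and outlier spots were left out, log2 intensity was set to 0 at each array's 75th percentile, and a gene was represented by its brightest probe well above background on some array (20619 genes). The fold threshold was 2. limma 3.58.1 in R 4.3.3 fitted genotype and palmitate over all genes (Benjamini-Hochberg, two-sided, adjusted p under 0.05), and its script was tested on simulated data. The number of arrays limits the precision. The genes and lists were chosen with earlier results of these data known. Pathway genes were named where past 2-fold the same way in both conditions on all 4 arrays, at most 4 a list, beside the 3 nearest profiles. Alternatives were other scaling, background correction, probe choice, filters and, added after seeing the data, scaling to spike-in probes.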

Additional observations from a re-analysis of the deposited data

Results flagged for a closer look

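One of the 4 Ddx58 probes, at 40170969 to 40171028 on chromosome 4 (mm9), moved in opposite directions with palmitate in the genotypes. It read −2.86 in untreated control, −1.23 in untreated Drp1LiKO, −2.001 in palmitate-treated control and −1.53 in palmitate-treated Drp1LiKO. The palmitate difference was 0.86 ± 0.24 in control and −0.30 ± 0.21 in Drp1LiKO, so the second minus the first was −1.16. The difference was not tested, since each value is from 1 array. The main Ddx58 probe gave 0.43 in control and 0.22 in Drp1LiKO. The remaining Ddx58 probes gave 0.53 and −0.04, and 0.33 and 0.12, in the same order.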

How the results depend on the processing

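No paired analysis was possible because the labels carry no replicate numbers; both genotypes share each slide, and the palmitate term of the model takes slide as a block. With 1 array per group, leaving out a replicate was not possible. Of 360 values of single genes under 9 alternatives, 340 kept their side of the 2-fold threshold, 17 lost the call and 3 gained it. Of the called values 0 changed sign. The 340 include values that could not move. Alternatives that changed only the filter or the treatment of dim spots left every value as it was. This is because each gene's main probe was well above background on all arrays. Averaging probes could not move a gene with 1 probe. Scaling to the array median, which moves the median of all genes to −0.20 and −0.19 for genotype, left 3 of the 10 genes past 2-fold by genotype untreated and 1 by palmitate in control. By palmitate in control the count was 0 with normexp, 1 with the mean of all probes and 0 with spike-in scaling, which moves the median of all genes to −0.21 and −0.22. By palmitate in Drp1LiKO it was 2 with the mean of all probes and 0 with spike-in scaling. With the mean of all probes Mb21d1 with palmitate was −0.95, Zbp1 untreated 0.69 and Dhx58 untreated 0.74. The model called 0 of the 10 genes by genotype but 5 with normexp (1437 of all genes), 6 among genes well above background on all arrays (2526 of all genes) and 7 with an intensity trend (5275), and by palmitate 0 but 1 with the trend (95 of all genes); with 1 residual degree of freedom these counts turn on how the spread is pooled. What limits the values is the number of arrays and, for the second probes of Mb21d1 and Zbp1, a signal near background.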
